A study of Mus musculus with 6 samples.

Results

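The abundant long noncoding RNAs of CD4+ T cells grown under Th1 conditions were described here, first by level and then by their change with ALX-5407, which blocks glycine uptake through GlyT1. Members were chosen by 2 properties of the count file, a long noncoding biotype and a mean raw count of 100 or more over the 6 libraries, and the small nucleolar RNA hosts Snhg6, Snhg12 and Snhg20 were dropped by name. This gave 187 of the 54532 genes in the file, among 8873 genes of a long noncoding biotype. The file called 106 of them lincRNA, 60 antisense, 11 bidirectional promoter RNA and 10 sense intronic. The mean count selected the members, so levels are given as a description with no test, while the difference between the groups did not enter the choice. Just inside the limit were Gm38250 (mean count 100.2) and Gm47792 (100.5), and just outside were Fam120aos (98.83) and Trmt61b (98.67).

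CD4+ T cells were isolated by magnetic negative selection from the spleens of male C57BL/6 mice and stimulated through CD3 and CD28 with IL-2, IL-12 and an antibody to IL-4. One group of 3 libraries, called Th1 here, received vehicle (DMSO), and the other group of 3 libraries, called Th1_ALX, received 500 nM ALX-5407, both for 72 h as the labels give it. No genotype differed between the groups, and a shorter exposure stands in the sequencing paragraph of the study's methods. Libraries held 30801753 to 36727788 counts on genes. The labels call the libraries biological replicates but do not say whether the cultures came from separate animals, so p-values measure the spread between these samples, which may be technical.

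As background, long noncoding RNAs are transcripts that are mostly not translated, and they act in several known ways. Some build nuclear bodies (Malat1 in nuclear speckles, Neat1 in paraspeckles), some silence imprinted genes or act in X inactivation (Kcnq1ot1, Ftx), some bind proteins or microRNAs in the cytoplasm (Norad, Cyrano), and some are the precursors of microRNAs (Mir155hg, Mir17hg). Many others are made from enhancers, from the opposite strand of a coding gene or from a shared promoter, and there the act of transcription can matter more than the RNA. In T cells, Mir155hg, Mir142hg and Mir17hg carry microRNAs needed for activation and differentiation, and AW112010 has been described as a restraint on Il10.

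Sequences that define how some of these members work are shown first. Malat1 (chr19:5795690-5802672, minus strand, GRCm38) ends in a stretch in which U-rich segments pair with a run of A to form a protective triple helix, followed by the tRNA-like mascRNA. Bases 6584 to 6749 of its 6983-base GENCODE transcript are given with the run of 12 A in capitals, the longest in the transcript, where the next longest had 6.
Malat1: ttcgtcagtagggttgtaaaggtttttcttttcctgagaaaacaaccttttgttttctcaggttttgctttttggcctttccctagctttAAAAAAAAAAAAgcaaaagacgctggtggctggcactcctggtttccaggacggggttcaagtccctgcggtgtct
This end is formed by cleavage upstream of the tRNA-like part, so Malat1 carries no poly(A) tail of the usual kind.

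The RNA listed as 1700020I14Rik (chr2:119594297-119607502, plus strand) is Cyrano, also named Oip5os1, known for a site with extended pairing to miR-7. Bases 2933 to 2961 of its 8300-base transcript are shown with capitals for the 13 bases complementary to the 3′ part of miR-7a-5p and for the seed match, and the microRNA is shown with its seed (bases 2 to 8) in capitals.
Cyrano site: gaACAACAAAATCACcaatGTCTTCCatt
mmu-miR-7a-5p: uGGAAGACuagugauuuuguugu
The RNA listed as 2900097C17Rik (chr2:156388065-156392979, minus strand) is Norad, which binds Pumilio proteins through repeated elements. Its 4915-base transcript held 11 copies of TGTANATA, or 2.24 per kb, read on the transcript strand. Of the 187 members, 139 held none, 46 held 1 to 4 and 2 held 5 or more, the other being Kcnq1ot1 with 18 in 93092 bases (0.193 per kb). Bases 2422 to 2478 of Norad are shown with a close pair of elements in capitals.
Norad: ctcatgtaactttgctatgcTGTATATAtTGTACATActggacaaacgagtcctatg

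Among the microRNA hosts, the mature products below (RefSeq, GRCm38.p6) are shown with the seed in capitals, since the seed decides target choice. Within the Mir17hg cluster, miR-17-5p and miR-20a-5p shared 1 seed and miR-19a-3p and miR-19b-3p shared another, while miR-18a-5p and miR-92a-3p each had its own.
mmu-miR-155-5p: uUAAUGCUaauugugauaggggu
mmu-miR-142a-3p: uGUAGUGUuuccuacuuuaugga
mmu-miR-17-5p: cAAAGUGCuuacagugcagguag
mmu-miR-20a-5p: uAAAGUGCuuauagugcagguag
mmu-miR-19a-3p: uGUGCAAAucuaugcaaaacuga
mmu-miR-19b-3p: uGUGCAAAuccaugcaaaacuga
mmu-miR-18a-5p: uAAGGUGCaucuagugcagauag
mmu-miR-92a-3p: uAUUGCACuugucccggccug
The counts below are of the host transcripts, and mature microRNAs were not measured.

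With ALX-5407, more of the abundant long noncoding RNAs fell than rose. At an adjusted p under 0.05 (edgeR quasi-likelihood test, Benjamini-Hochberg over all 15938 genes tested), 79 of 187 were lower (42.2%), 40 were higher (21.4%) and 68 were not called. Over all genes tested the shares were 23.2% lower and 24.5% higher, and over the genes of mean count 100 or more, the class the members were drawn from, they were 26.2% lower and 31.9% higher. The lean to lower levels was sharper among large changes: 27 members (14.4%) fell and 5 (2.67%) rose with a log2 fold change beyond 1, against 6.68% and 3.36% of all genes tested and 3.58% and 2.16% of genes of mean count 100 or more. All 187 members passed the filter on low counts. Their median log2 fold change was -0.19, beside 0.05 over genes of mean count 100 or more, and in 128 members (68.4%) the values of the groups did not overlap, beside 64.4% of genes of that mean count. Each difference is given as ALX-5407 minus vehicle, and levels are CPM, counts scaled to a common library size after TMM scaling. Log2 fold changes ran from -2.65 to -0.20 among the 79 that fell, from 0.27 to 1.67 among the 40 that rose and from -0.56 to 0.52 among the 68 not called.

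**Figure D1:**
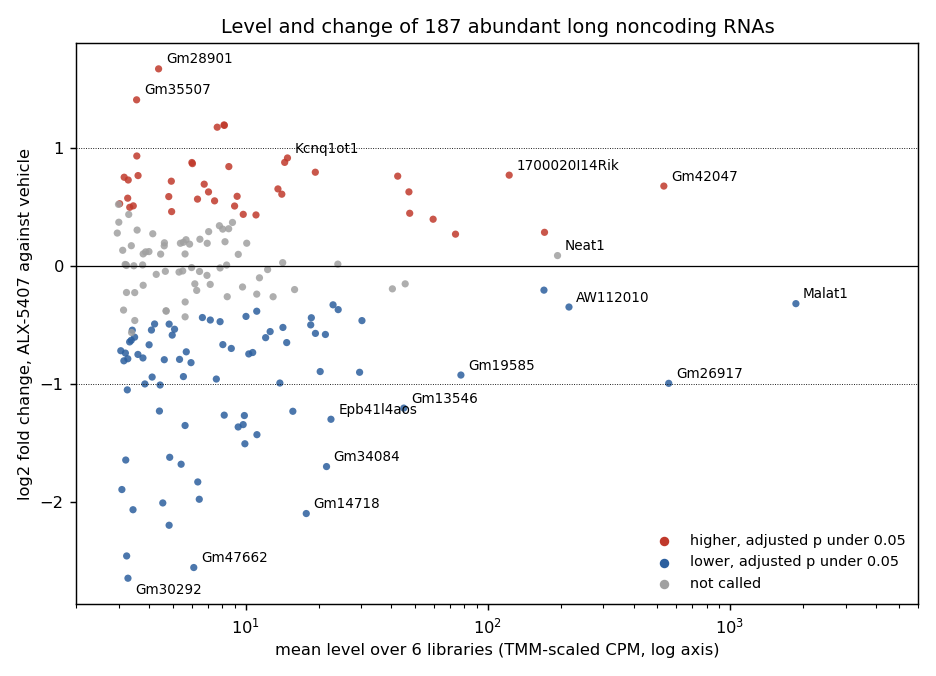
Mean level over the 6 libraries (x axis, TMM-scaled CPM, log scale) against the log2 fold change with ALX-5407 (y axis) for the 187 members, coloured by call, with dotted lines at a log2 fold change of 1 either way. The 27 members below the lower line outnumber the 5 above the upper one, and Malat1, at far the highest level, lies just below 0.

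The members together took a small part of each library. Their share of all counts was 0.576%, 0.597% and 0.596% in the vehicle libraries and 0.559%, 0.528% and 0.516% in the ALX-5407 libraries. The groups did not overlap, and the means were 0.589% ± 0.012 and 0.534% ± 0.022 (SD, n = 3 each; exact permutation test, two-sided, p = 0.1, the smallest that 3 against 3 allows). Without Malat1 the shares were 0.386% ± 0.008 and 0.364% ± 0.008 (p = 0.1 by the same exact test), so that the difference shrank from -0.055 to -0.022 percentage points. Without Gm26917 they were 0.517% ± 0.021 and 0.496% ± 0.014 (-0.020 points; p = 0.2 by the same exact test). Without both, the sign turned, at 0.314% ± 0.016 and 0.327% ± 0.005 (0.013 points; exact permutation p = 0.3), with overlapping groups. The lower total thus rested on Malat1 and Gm26917, which changed by -0.033 and -0.035 points, while Gm42047 changed by 0.027 points. The 10 most abundant members held 70.8% of the members' counts, and Malat1 alone held 33.1%.

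Per kilobase of gene length the order differed from the order of counts. AW112010 had the highest level (280.9 CPM per kb), followed by Malat1 (267.9), Gm26917 (167.8), Gm10076 (105.1), Gm42047 (94.4) and Mir142hg (69.0), and Kcnq1ot1, the longest member, had the lowest (0.160 CPM per kb). The median member stood at 2.72 CPM per kb, beside 8.43 for protein-coding genes of mean count 100 or more. Gm10076 shares nearly its whole length with the ribosomal protein gene Rpl41 (99.7% of the transcript at 99.3% identity), so its place in this order is uncertain.

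Of 12 listed noncoding RNAs of nuclear bodies and chromatin, 5 were tested, of which 2 rose, 2 fell and 1 was not called, and 4 were members. For this and the other noncoding RNA lists below, 24.5% higher and 23.2% lower among all genes tested give the background. No test set the lists apart from it. The lists also hold genes that are not members, because of a mean count under 100 or another biotype in the file. Malat1, the speckle RNA, was at 2008, 2219 and 2001 CPM with vehicle and at 1827, 1649 and 1523 CPM with ALX-5407. The groups did not overlap, and the level was 1.25-fold lower (log2 fold change -0.32, SE 0.08, adjusted p = 0.00356). Neat1, the scaffold of paraspeckles, lies on the same chromosome (chr19:5824708-5845478) and gave 180, 202 and 182 CPM with vehicle against 214, 199 and 187 CPM with ALX-5407, so the groups overlapped (log2 fold change 0.09, adjusted p = 0.355). Tug1, which shares a divergent promoter region with Morc2a, rose from 51.3 ± 5.2 to 67.6 ± 3.1 CPM (SD, n = 3 each; adjusted p = 0.00092), and Morc2a rose as well (log2 fold change 0.45, adjusted p = 0.00117). The listed nuclear RNA 4933404O12Rik rose from 10.2 ± 1.1 to 18.8 ± 1.4 CPM (log2 fold change 0.88). Firre, which has no long noncoding biotype in the file, fell (102 to 67.9 CPM, log2 fold change -0.59, adjusted p = 6.13e-06). Beside them, the transcripts of 20 proteins of paraspeckles and nuclear speckles were counted. Of these, 6 rose, 7 fell and 7 were not called, with a median log2 fold change of -0.07 (all genes tested: 0.01). Protein was not measured, so the protein lists here and below are of transcripts. For this and the other protein lists below, 31.9% higher and 26.2% lower among all genes of mean count 100 or more give the background, and the counts of this list, of the XIST complex and of microRNA processing are not set apart from it by any test. The smallest p-values in that list belonged to Hnrnph3 (-0.78), Matr3 (-0.57) and Taf15 (-0.59), all RNA-binding proteins, and to the speckle core protein Son (0.53).

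The sources differ on how RNA was selected: the labels give capture on oligo(dT) beads and the study's methods give removal of ribosomal RNA. Of 10 RNAs made without a poly(A) tail that the file lists, Rmrp, Rn7s1, Rn7s2, Rny3, Rpph1 and Vaultrc5 were at 0 in all 6 libraries. Only Rn7sk passed the filter, at a mean of 1.72 CPM with vehicle and 0.891 CPM with ALX-5407 (log2 fold change -0.95, adjusted p = 0.0179). The summed level of the list was 1.87 to 2.41 CPM in vehicle libraries and 0.856 to 1.72 CPM in ALX-5407 libraries, and it rested largely on Rn7sk. Scarna2 had 6, 6 and 15 counts with vehicle and 7, 19 and 6 with ALX-5407, and Terc had 0, 2 and 2 against 0, 12 and 0. Thus Rn7sk moved in the same direction as Malat1 but the list as a whole did not move one way. Any part of RNA selection in the Malat1 difference was not tested.

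Of the other most abundant members, some are hard to count. Gm26917 (chr17:39843013-39846341) gave 848, 727 and 656 CPM with vehicle and 460, 387 and 274 CPM with ALX-5407. Every vehicle library was above every ALX-5407 library, and the level was 1.99-fold lower (log2 fold change -0.99, SE 0.14, adjusted p = 2.03e-05). As background, this locus carries sequence of the ribosomal RNA precursor, and whether the counts are of that RNA was not tested. Gm42047 (chr8:121833247-121841178) rose from 410 ± 40 to 656 ± 25 CPM (SD, n = 3 each; log2 fold change 0.68, adjusted p = 3.15e-06), but 4 other noncoding genes match 50.9% to 64.2% of its transcript at 98.4% to 99.1% identity, and how reads with several matches were assigned is not stated.

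The cytoplasmic regulators Cyrano and Norad both rose. Cyrano was at 85.5, 84.9 and 101 CPM with vehicle and at 150, 155 and 159 CPM with ALX-5407. The 3 treated libraries lay close together and far above the others (1.71-fold, log2 fold change 0.77, SE 0.08, adjusted p = 8.25e-07). Norad was at 149, 160 and 154 CPM with vehicle and at 177, 185 and 203 CPM with ALX-5407, a smaller rise without overlap (1.22-fold, adjusted p = 0.00418). A copy listed as Gm7292 matches 51.6% of Norad at 99.2% identity, so its level is less certain than that of Cyrano.

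AW112010, the Il10-related immune RNA, fell from 234, 220 and 273 CPM to 207, 194 and 170 CPM (1.27-fold lower, adjusted p = 0.00486). The groups did not overlap, and the highest ALX-5407 library lay just under the lowest vehicle library. AU020206 fell by 0.20 on the log2 scale (183 ± 8 to 159 ± 7 CPM, adjusted p = 0.0251), and that call was lost without ALX-5407 replicate 1 (adjusted p = 0.092), without replicate 2 (0.144) and with no filter on low counts (0.0523), within a range of 0.00627 to 0.144 over all alternatives. Gm17767 rose by 0.27 (66.6 ± 3.0 to 80.4 ± 6.4 CPM, adjusted p = 0.00861), a call lost without ALX-5407 replicate 1 (adjusted p = 0.0645, from 0.00401 to 0.0645 over all alternatives).

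**Figure D2:**
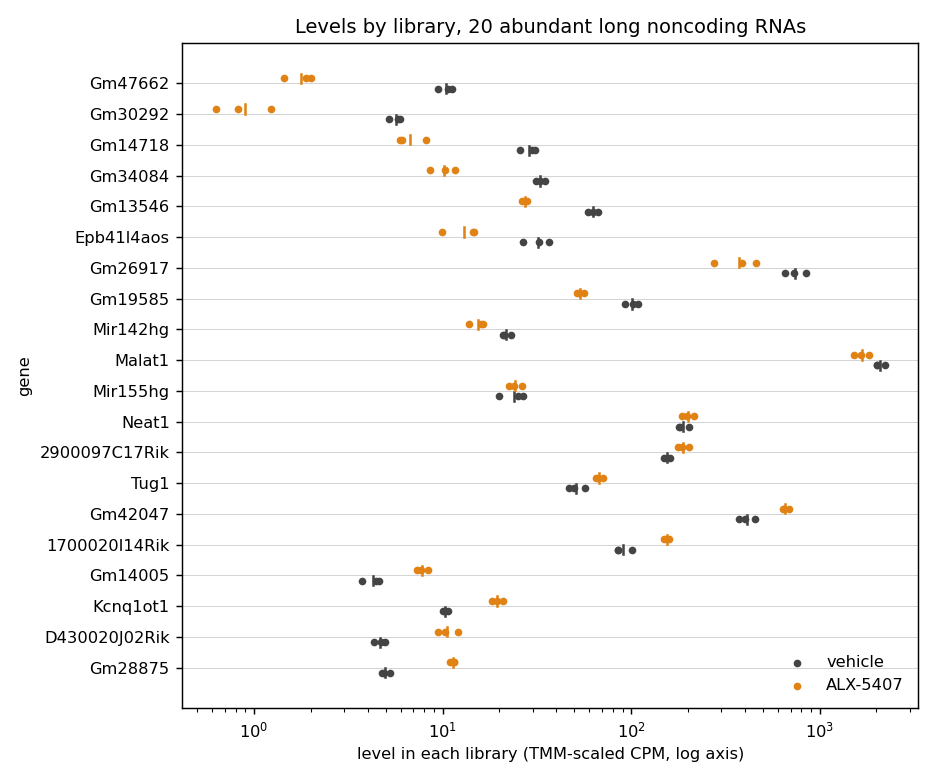
Level in each library (x axis, TMM-scaled CPM, log scale) of 20 members named in the text, with 3 vehicle points and 3 ALX-5407 points per gene and a bar at each group's mean. Points of the groups overlap for Mir155hg and Neat1 and are apart for the other 18 genes.

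Of 6 tested noncoding RNAs that host microRNAs by the list used, 1 rose, 1 fell and 4 were not called. The host of miR-142 fell, and those of miR-155 and the miR-17 cluster were not called. The gene that rose was Dleu2 (3.64 to 8.18 CPM, log2 fold change 1.17, adjusted p = 5.49e-05), which has no long noncoding biotype in the file. Mir142hg (chr11:87755577-87757270) was at 23.1, 20.9 and 21.2 CPM with vehicle and at 16.3, 15.98 and 13.9 CPM with ALX-5407, without overlap (1.41-fold lower, adjusted p = 8.30e-04). Mir155hg (chr16:84703167-84715245), also called Bic, was at 19.9, 25.1 and 26.6 CPM and at 22.4, 23.8 and 26.3 CPM, with each group inside or across the other (log2 fold change 0.02, SE 0.11, adjusted p = 0.915). Mir17hg varied most within the vehicle group, at 3.81, 6.25 and 7.83 CPM, and gave 7.42, 6.76 and 6.76 CPM with ALX-5407 (log2 fold change 0.23, SE 0.20, adjusted p = 0.376). Pvt1, which lies next to Myc and is itself a microRNA host in the lists used, gave a log2 fold change of -0.26 (14.2 ± 1.0 to 11.8 ± 1.0 CPM, adjusted p = 0.0762) while Myc rose (0.57, adjusted p = 1.62e-05), and Pvt1 passed the threshold under other scalings (adjusted p = 0.0372 with upper quartile scaling, from 0.0372 to 0.254 over all alternatives). Of the transcripts of 17 microRNA processing proteins, 5 rose, 3 fell and 9 were not called (median -0.05). Among them were the nuclease Dicer1 (0.58), Dgcr8, the partner of Drosha (0.77), and the Argonaute-binding proteins Tnrc6c (0.47) and Tnrc6a (-0.55).

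Of 8 tested noncoding RNAs of X inactivation and imprinted loci, 1 rose, 2 fell and 5 were not called. Kcnq1ot1 (chr7:143203458-143296549), the antisense RNA that silences genes around Kcnq1 on the paternal chromosome, was at 10.01, 10.2 and 10.7 CPM with vehicle and at 20.8, 19.4 and 18.2 CPM with ALX-5407. Its level rose 1.89-fold in tight groups (log2 fold change 0.92, SE 0.11, adjusted p = 3.28e-06). H19 (chr7:142575529-142578143), an imprinted RNA expressed from the maternal chromosome and the source of miR-675, fell from 5.53, 5.74 and 4.06 CPM to 3.12, 2.25 and 2.31 CPM (2.00-fold lower, adjusted p = 7.72e-04). Ftx, an X-linked activator of Xist, gave 6.55 ± 0.77 and 6.35 ± 1.30 CPM, and the groups overlapped (log2 fold change -0.04, SE 0.17, adjusted p = 0.852). The cells came from male mice, and Xist itself was not among the 8 tested RNAs, so X inactivation was not read here. Among the transcripts of 18 proteins of the XIST complex, 6 rose, 4 fell and 8 were not called (median 0.13). The smallest p-values were for Rbm15b (0.85) and Spen (0.71), which bind Xist, the Polycomb subunit Pcgf5 (-0.54) and Matr3 (-0.57).

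Of 17 tested genes listed as noncoding RNAs described in T cells or immunity, 4 rose, 5 fell and 8 were not called, and 7 were members. Gm4759, which rose, and A430093F15Rik, which fell, have no long noncoding biotype in the file. Gm19585 (chr17:51986415-52163976) was at 93.1, 102 and 109 CPM with vehicle and at 56.1, 51.6 and 52.7 CPM with ALX-5407. It was 1.90-fold lower with no overlap (log2 fold change -0.92, SE 0.08, adjusted p = 1.22e-07). It lies 153125 bases from Satb1, a chromatin organiser of T cells, which was not called (0.07, adjusted p = 0.444), and AC161258.2, which lies between them, fell as well (-1.27, adjusted p = 1.67e-06). Gm13546, antisense within Cytip, was at 59.2, 62.6 and 66.3 CPM with vehicle and at 28.0, 26.5 and 27.2 CPM with ALX-5407 (2.30-fold lower, adjusted p = 8.12e-09), while Cytip, an adaptor of cytohesins in lymphocytes, gave -0.20 (adjusted p = 0.0588). A630023P12Rik fell from 10.8 ± 1.1 to 6.65 ± 0.48 CPM (adjusted p = 4.44e-04). Gm2682 rose from 6.09 ± 0.56 to 10.95 ± 1.26 CPM (adjusted p = 1.15e-04). Gm14005 is Morrbid, described as a repressor of the death gene Bcl2l11 in immune cells. It was at 3.75, 4.59 and 4.45 CPM with vehicle and at 8.41, 7.32 and 7.64 CPM with ALX-5407, 1.83-fold higher (adjusted p = 1.97e-04), whereas Bcl2l11 gave -0.01 (adjusted p = 0.934). Mirt1 was not called (0.20, adjusted p = 0.342).

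Of 10 tested genes listed as noncoding RNAs of p53, DNA damage and growth, 4 rose, 3 fell and 3 were not called, Cyrano, Norad and Gm26917 among them. Of these genes 9 were members, and Ptprv, which fell (-0.86), has no long noncoding biotype in the file. Epb41l4aos, which hosts a small nucleolar RNA in an intron, was at 26.8, 32.6 and 36.6 CPM with vehicle and at 14.4, 14.6 and 9.93 CPM with ALX-5407. It was 2.46-fold lower without overlap (log2 fold change -1.30, SE 0.14, adjusted p = 1.70e-06). Trp53cor1, the p53-induced lincRNA-p21, rose from 2.83 ± 0.15 to 4.04 ± 0.54 CPM (log2 fold change 0.51, adjusted p = 0.0355), but 44.1% of its exon bases lie opposite another noncoding gene, and the call was lost in 8 of 14 alternative fits (adjusted p from 0.0235 to 0.105, the highest without ALX-5407 replicate 3). Its neighbour Cdkn1a, the cell cycle inhibitor p21, gave 0.10 (adjusted p = 0.509). Lncpint gave 6.87 ± 0.79 and 8.71 ± 0.78 CPM, apart in every library but short of the threshold (0.34, adjusted p = 0.0572). Lockd, an RNA from an enhancer of Cdkn1b, was not called (-0.10, adjusted p = 0.563), whereas Cdkn1b, the inhibitor p27, fell (-0.66, adjusted p = 2.55e-06).

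The steepest falls were in RNAs of low to moderate level. Gm30292 (chr3:52789004-52797785) was at 5.22, 5.77 and 5.91 CPM with vehicle and at 0.821, 1.23 and 0.628 CPM with ALX-5407, 6.26-fold lower (log2 fold change -2.65, SE 0.24, adjusted p = 2.42e-07). Gm47662 (chr13:32997062-33001750) was at 9.43, 11.2 and 10.7 CPM and at 1.44, 1.88 and 2.00 CPM, 5.88-fold lower (log2 fold change -2.55, SE 0.17, adjusted p = 1.07e-08). It lies 1500 bases from Serpinb9, the granzyme B inhibitor, which fell from 76.6 to 29.0 CPM (-1.40, adjusted p = 5.00e-09). AC133498.1 fell by 2.46 on the log2 scale and the gene nearest to it is Klf6 (136972 bases away, -0.35).

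Gm14718 (chrX:57200643-57204378) had the highest level in CPM of the 10 members with the lowest log2 fold changes, while Gm34084, Epb41l4aos and Gm13546, which fell less steeply, were higher. It was at 25.8, 30.8 and 29.9 CPM with vehicle and at 6.12, 5.98 and 8.13 CPM with ALX-5407 (4.28-fold lower, adjusted p = 4.18e-09). Its nearest coding gene, 7765 bases away, is Cd40lg, the CD40 ligand of helper T cells, which fell less (-0.61, adjusted p = 3.27e-05). The others of this group were Gm37850 inside Rbm5 (-2.20), Gm16093 opposite Pde7a (-2.06), Bach2os opposite Bach2 (-2.01), Gm26724 opposite Lemd2 (-1.98), Gm47792 (-1.89) and Gm26762 opposite Gpi1 (-1.83), with adjusted p from 2.04e-07 to 1.30e-05.

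Gm47792 and Gm34084 lie on opposite strands 5010 bases apart, upstream of Jarid2, a Polycomb cofactor. Gm34084 was at 31.1, 32.9 and 34.9 CPM with vehicle and at 8.52, 11.7 and 10.2 CPM with ALX-5407 (3.25-fold lower, adjusted p = 1.09e-08), and Gm47792 was at 6.02, 4.37 and 4.19 CPM and at 0.850, 1.61 and 1.46 CPM. Both fell by more than Jarid2 itself (-0.75, adjusted p = 2.22e-07), although the difference between the genes was not tested. Gm33195 fell by less (-1.23, adjusted p = 1.04e-04) than its nearest coding gene Cd83, a marker of activated lymphocytes (-2.66, adjusted p = 4.64e-11), and this difference was not tested either.

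The steepest rises were 5 in number. Gm28901 had the largest (3.19-fold, log2 fold change 1.67), but its whole 474-base transcript matches Hnrnpf at 99.3% identity and 85.7% of its exon bases lie opposite a pseudogene, so the value is uncertain. Gm35507 (chr3:106827307-106879361) was at 1.75, 1.75 and 2.31 CPM with vehicle and at 5.10, 4.77 and 5.59 CPM with ALX-5407 (2.66-fold, adjusted p = 2.05e-05), and Gm32856 rose from 4.94 ± 0.54 to 11.3 ± 2.0 CPM (adjusted p = 1.22e-05). Gm28875, which lies 3244 bases downstream of Syne3 on the same strand, was at 4.76, 5.23 and 4.91 CPM and at 11.5, 11.6 and 11.01 CPM (2.29-fold, adjusted p = 1.78e-06). Syne3, a nuclear envelope protein that links to the cytoskeleton, rose by 0.89 on the log2 scale.

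D430020J02Rik (chr12:116401947-116405210) completes this group and starts 192 bases from Ncapg2, a condensin subunit needed for mitotic chromosomes, on the opposite strand. It was at 4.33, 4.72 and 4.97 CPM with vehicle and at 10.3, 9.44 and 12.04 CPM with ALX-5407 (2.26-fold, log2 fold change 1.18, adjusted p = 6.07e-06), and Ncapg2 rose as well (0.88, adjusted p = 1.03e-06). Promoter windows (250 bases before to 50 after the start, RefSeq, GRCm38.p6) were matched for 97 of the 187 members. Each was the window nearest the member's annotated start, with no limit on distance. Some lay far from it, as for Gm19585 (162874 bases), Gm14005 (73414) and Gm34084 (24221). All 97 windows are kept in the shares below. The E2F-type octamers TTTCCCGC or TTTGGCGC were found on either strand in 2 of these windows (2.06%), those of D430020J02Rik and of 4632404H12Rik, beside 1.56% of all 32851 windows, so the members held them at about the background share. 4632404H12Rik, which starts 376 bases from Ube2q1, rose from 2.44 ± 0.62 to 4.66 ± 0.81 CPM (adjusted p = 0.00211) while Ube2q1 was not called (-0.02, adjusted p = 0.831). Both windows are printed, as examples of a divergent start region beside a coding gene, with the octamer in capitals. Capitals also mark TGANTCA (the AP-1 type, in 7.81% of all windows) in the first window and CACGTG (the E-box of Myc and related factors, in 7.15%) in the second.
D430020J02Rik, chr12:116405112-116405411, minus strand: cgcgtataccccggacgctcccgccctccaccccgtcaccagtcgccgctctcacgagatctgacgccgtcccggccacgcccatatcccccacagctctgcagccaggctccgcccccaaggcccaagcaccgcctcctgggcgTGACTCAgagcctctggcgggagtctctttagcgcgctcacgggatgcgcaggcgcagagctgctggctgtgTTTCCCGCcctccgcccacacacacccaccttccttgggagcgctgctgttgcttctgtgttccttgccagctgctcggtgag
4632404H12Rik, chr3:89773351-89773650, minus strand: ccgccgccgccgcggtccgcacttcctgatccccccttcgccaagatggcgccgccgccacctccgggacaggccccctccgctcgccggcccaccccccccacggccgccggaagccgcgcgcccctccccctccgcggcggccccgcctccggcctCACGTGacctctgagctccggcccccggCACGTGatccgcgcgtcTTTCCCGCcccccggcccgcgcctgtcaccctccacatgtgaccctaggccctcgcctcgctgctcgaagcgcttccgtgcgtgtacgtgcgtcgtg
A match is a description of the letters and no evidence of a bound factor. CACGTG was in 5 of 26 windows of members that rose (19.2%), 3 of 31 that fell (9.68%) and 3 of 40 not called (7.5%), and CCAAT in 42.3%, 38.7% and 45.0% of them, beside 37.4% of all windows. TGATGNAAT was in none of the 97 windows and in 0.965% of all. The median number of CpG was 14 in windows of members that rose, 6.0 in those that fell and 12.5 in those not called, beside 7.0 in all windows.

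Calls were counted by position relative to coding genes, with no test between the classes, and read beside the 26.2% lower and 31.9% higher among all genes of mean count 100 or more. Each member was put in a single class, tried in a fixed order. The order was head-to-head starts within 2 kb, overlap on the opposite strand, overlap on the same strand, and downstream on the same strand within 5 kb. Members that met none of these were called apart. Among the 50 members that overlap a coding gene on the opposite strand and have no head-to-head start, 30 fell (60%) and 5 rose (10%, median log2 fold change -0.58). Among the 18 that overlap one on the same strand, 9 fell (50%) and 4 rose (22.2%, median -0.26). Among the 71 called apart, 30 fell (42.3%) and 15 rose (21.1%, median -0.19). These 71 had no minimum distance to a coding gene, and Epb41l4aos, for example, lies 341 bases from Epb41l4a. The 39 members that start head-to-head with a coding gene, within 2 kb, had 10 lower (25.6%) and 11 higher (28.2%, median 0.12), near the shares of all genes. Some of these, such as Tug1 with Morc2a, also overlap that gene on the opposite strand. Of the 9 members within 5 kb downstream of a coding gene on the same strand, 5 rose and none fell (0.44) by the edgeR test, with 0 falling at an unadjusted p under 0.05 and 0 by DESeq2 or limma-voom. These 9 included AI504432 behind the potassium channel gene Kcna3 (0.80 and 0.53) and AC163032.1 behind Sp4 (0.51 and 0.25). By the file's biotype, 29 of 60 antisense RNAs fell (48.3%) and 7 rose (11.7%), 40 of 106 lincRNAs fell (37.7%) and 26 rose (24.5%), 7 of 10 sense intronic RNAs fell and 1 rose, and 3 of 11 bidirectional promoter RNAs fell (27.3%) and 6 rose (54.5%), to be read beside the same 26.2% and 31.9%.

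**Figure D3:**
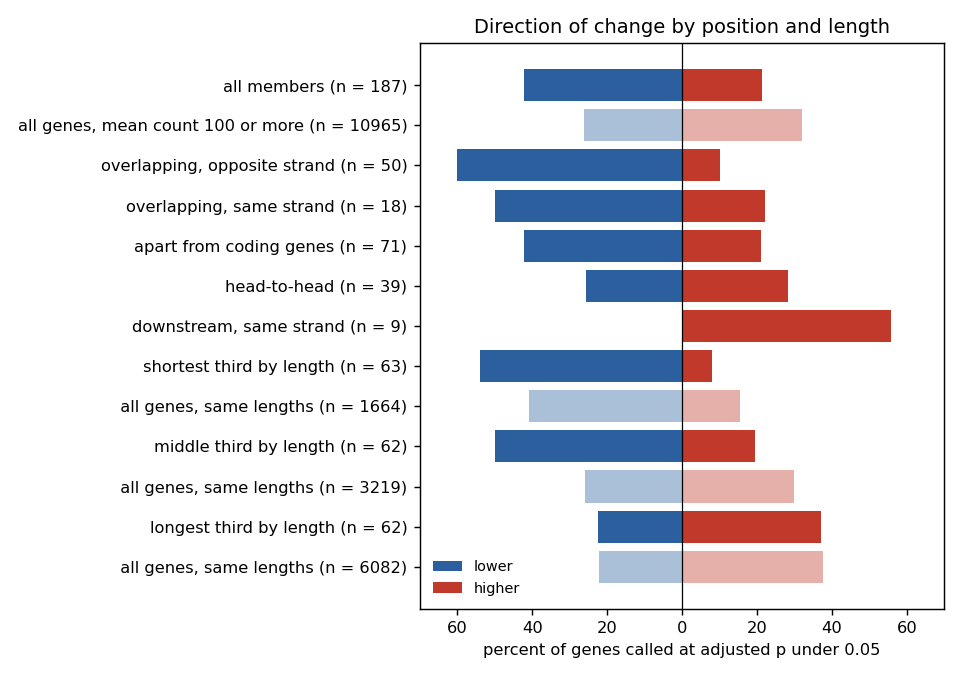
Percent of genes called lower (left, blue) and higher (right, red) at an adjusted p under 0.05 for all members, for members by position relative to coding genes and by gene length, with pale bars for all genes of mean count 100 or more. The opposite-strand bar reaches furthest to the left, and the bars of the 62 longest members match the pale bars of equally long genes. Each member is in a single position class, with head-to-head starts taken first, and the bar labelled apart holds members of no other class.

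Gene length moved with the direction of change. Of the 63 shortest members (269 to 1997 bases), 54.0% fell and 7.94% rose, beside 41.0% and 15.3% of all genes of mean count 100 or more in the same length range. Of the 62 of middle length (2000 to 3979 bases), 50% fell and 19.4% rose, beside 26.0% and 29.8%. Of the 62 longest (4070 bases and more), 22.6% fell and 37.1% rose, and the shares of equally long genes were 22.2% and 37.5%. Spearman's rho between length and log2 fold change was 0.328 across the members and 0.179 across all 10965 genes of mean count 100 or more, both given as descriptions across genes of the same 6 libraries. Members of the opposite-strand class were also shorter (median 2092 bases) than the members starting head-to-head (3122), and the separate parts of position and length in the falls were not tested.

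The members were set beside a protein-coding neighbour, which was itself tested for 169 of them. The neighbour was taken by the class order above, so a head-to-head gene came before an overlapping one and was not always the nearest. Brip1os, for example, was set beside Brip1 although its exons overlap those of Med13 and Ints2. In 62 pairs both genes were called. Both fell in 32, both rose in 19, and they went opposite ways in 11, of which 4 had the noncoding RNA higher and 7 had it lower. In a further 45 pairs the noncoding RNA alone was called. Across the 169 pairs rho was 0.436, with 0.481 in the 46 opposite-strand pairs and 0.0896 in the 38 head-to-head pairs, given as descriptions with no test. For overlapping pairs the strand setting of the counting is not stated, so reads of a coding gene and of its antisense partner may not have been told apart.

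**Figure D4:**
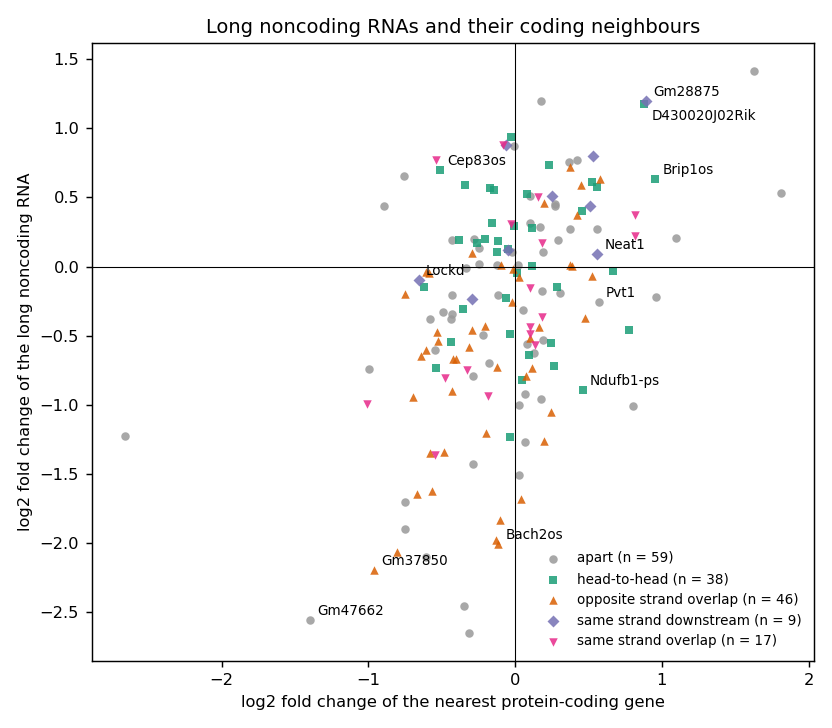
Log2 fold change of the protein-coding neighbour (x axis, labelled nearest, but taken by class order as in the text) against that of the long noncoding RNA (y axis) for 169 pairs. Each position class has its own symbol. Most pairs with both genes called lie lower left (32) or upper right (19), and Cep83os and Ndufb1-ps are examples of opposite directions.

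Pairs with a shared promoter region went both ways. Brip1os, which starts 177 bases from the DNA repair helicase gene Brip1, was at 38.6, 38.0 and 34.5 CPM with vehicle and at 58.7, 53.4 and 60.01 CPM with ALX-5407 (1.55-fold, adjusted p = 9.63e-06), and Brip1 rose too (0.95, adjusted p = 4.24e-07). Cep83os, 78 bases from the centrosomal gene Cep83, was at 4.91, 5.33 and 5.199 CPM and at 7.05, 8.23 and 9.73 CPM (1.62-fold higher, adjusted p = 0.00138), whereas Cep83 fell (-0.51, adjusted p = 7.87e-05). Ndufb1-ps fell from 26.4 ± 5.0 to 14.2 ± 2.0 CPM (adjusted p = 5.40e-05), whereas Cpsf2, a subunit of the polyadenylation complex, rose (0.46, adjusted p = 1.01e-04). Gm38250, 277 bases from Atp6v0d1, was not called, nor was that gene (0.28 and 0.11).

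Overlapping pairs likewise held falls with and without a fall of the coding gene. Gm37850 fell from 7.93 ± 1.81 to 1.73 ± 0.04 CPM inside Rbm5, a splicing regulator, which fell by 0.96 on the log2 scale, and Gm16093 (5.53 ± 0.68 to 1.32 ± 0.51 CPM) accompanied a fall of 0.81 of the phosphodiesterase Pde7a. Gm42664 within Ptbp2, a splicing repressor, fell by 0.99 and Ptbp2 by 1.01. In contrast, Bach2os was at 7.09, 8.04 and 6.73 CPM with vehicle and at 2.29, 1.85 and 1.28 CPM with ALX-5407, while Bach2, a repressor of effector programmes in T cells, was not called (-0.12, adjusted p = 0.194). Gm26724 (10.3 ± 0.6 to 2.60 ± 0.71 CPM) and Gm26762 (9.90 ± 0.87 to 2.78 ± 0.74 CPM) also fell beside coding genes that were not called, Lemd2 (-0.13, adjusted p = 0.186) and Gpi1 (-0.10, adjusted p = 0.310).

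Exon bases were shared with another annotated gene in 86 members (46.0%), in 9 of them over more than 50% of the exon length. The span of the coding neighbour set beside them was overlapped by 83 members (44.4%). Without the 86, 47 of the remaining 101 members fell and 23 rose, so the lean to lower levels was no smaller than among all members (42.2% and 21.4%). Without the 83, 36 of 104 fell and 26 rose, a smaller lean. Among all genes of mean count 100 or more, 26.2% were lower and 31.9% higher.

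Transcripts of proteins that degrade noncoding RNAs did not move one way. Of 24 tested members of the nuclear exosome and its adaptors, 7 rose, 8 fell and 9 were not called (median 0.00), with the smallest p-values for Mphosph6, an exosome cofactor (154 to 50.4 CPM, log2 fold change -1.62, adjusted p = 5.53e-10), the ring subunit Exosc8 (-0.65), the cap subunit Exosc3 (0.52) and the adaptor Zcchc7 (-0.60). Of 21 nonsense-mediated decay factors, 7 rose, 6 fell and 8 were not called (median 0.02), with the smallest p-values for Eif4a3 (0.62), a core of the exon junction complex, the helicase Upf1 (0.52), Upf3b (-0.66) and Nbas (0.55). These shares lay near those of all genes of mean count 100 or more.

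The labelled cell type was checked against its markers. The summed level of 10 T cell markers was 3676 to 3876 CPM with vehicle and 3274 to 3365 CPM with ALX-5407 (6 lower, 1 higher). For 7 Th1 markers it was 758 to 838 and 922 to 939 CPM (3 higher, 2 lower). Il12rb1 had the largest rise in CPM (131 to 244), and Hlx (1.81) and Tbx21 (0.34) rose. Stat4 (-1.16) and Il18rap (-0.57) fell, and Cxcr3 and Il12rb2 were not called, so the markers were mixed. Ifng, which the study reports as lower with ALX-5407, was not on this list. Of 10 myeloid markers only Cd68 passed the filter and fell (18.4 to 5.44 CPM), S100a8 and S100a9 were at 0, and the sum was 15.9 to 21.4 and 5.41 to 6.70 CPM. That sum was mostly Cd68. Every other myeloid marker had 15 counts or fewer in each library, and these did not move one way. The 8 B cell markers summed to 77.5 to 86.6 and 78.7 to 83.2 CPM (3 higher, 1 lower). Most of that sum was Ighm (55.4 to 62.7 CPM, not called), and the others were mixed. Ebf1 fell (17.6 to 5.71 CPM), while Ms4a1 (1.27), Pax5 (0.90) and Cd79a (0.67) rose on the log2 scale. The 6 CD8 T cell and NK cell markers summed to 46.4 to 50.8 and 40.9 to 46.3 CPM (1 higher, 1 lower of 4 tested), and 6 erythroid markers to 0.461 to 0.910 and 0.428 to 0.697 CPM. The part of these differences in the member values was not tested, and in bulk samples fewer cells of a type cannot be told apart from less RNA per cell.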

How the data were processed

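RNA sequencing of 6 libraries of mouse CD4+ T cells in Th1 culture was used, 3 with vehicle and 3 with ALX-5407, grouped by the sample labels. The authors deposited raw counts, whole numbers of reads per gene with no normalization, and per the labels' processing notes reads were trimmed with fastp, aligned to mm10 with HISAT2 2.0.5 and counted with featureCounts 1.5.0-p3. Strand use and the treatment of reads with several matches are not given in the sources used here.

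Counts were scaled by TMM and tested with the edgeR 4.0.16 quasi-likelihood test in R 4.3.3 after filterByExpr (minimum count 10, minimum total 15), with Benjamini-Hochberg adjustment over 15938 genes. SD is over 3 libraries and SE is that of the log2 fold change. The count tests were tried on simulated counts with known changes. Length was the gene length in the file. Positions, exons and transcripts came from GENCODE M21 on GRCm38, in which all 187 members were found and 182 had the same start and end. Near copies were BLAST matches at 95% identity or more over 50% or more of the transcript. One member, 6330403K07Rik, is coding in that release. Promoters and microRNAs came from RefSeq tables for GRCm38.p6.

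Members and gene lists were chosen with earlier results of these data known. Named members were the 10 with the highest mean CPM, up to 10 in each direction with the largest changes past both thresholds and no overlap, every member of the noncoding RNA lists, coding neighbours with shared exons or starts within 2 kb, and up to 4 genes per partner list by p. Other named genes (among them Gm34084, Gm33195, AC161258.2, Gm42664, Brip1os, Ndufb1-ps, AI504432, AC163032.1, 4632404H12Rik and coding neighbours farther away) were chosen after their values were seen. DESeq2 1.42.0, limma-voom 3.58.1, other scalings and filters, a replicate block and each replicate left out were tried as alternatives.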

Additional observations from a re-analysis of the deposited data

How the results depend on the processing

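For 45 named members, 630 values from alternative fits were compared with the reported ones: none reversed, 615 kept their direction and side of the threshold, 12 lost the call (AU020206, Gm17767 and Trp53cor1) and 3 gained it (Pvt1). The median of all genes moved by -0.05 to 0.01 (log2) under the alternatives. DESeq2 called 118 members, 117 of them also called by edgeR and none in the opposite direction.

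Counts depended on how members were defined. With a mean count of 50 or more (346 members), 128 fell, 53 of them beyond a log2 fold change of 1; with 500 or more (34 members), 19 fell and 10 rose, and beyond 1 these were 5 and 0. Without members sharing exons, 47 fell (17 beyond 1) and 23 rose. Without members overlapping their coding neighbour, an alternative chosen after seeing the data, 36 fell (12 beyond 1) and 26 rose. With a fold of 1.5 as the limit, 56 fell and 26 rose. For the mean counts of 50 and 500 and the fold of 1.5, the shares of all genes at the same limits were not counted. Those counts describe the members only. Without Malat1 the share of counts differed by -0.022 percentage points, and by alternatives chosen after seeing the data it differed by -0.020 without Gm26917 and reversed to 0.013 without both. Leaving out 1 replicate at a time gave 68 to 76 falling and 32 to 38 rising members, 28 to 31 and 5 to 7 beyond 1, and a share difference of -0.067 to -0.046 points.

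Same-numbered replicates did not deviate together (correlations -0.01, 0.00 and 0.06). Such values, taken around means of 3 libraries, cannot settle whether same-numbered cultures shared an animal or preparation. The labels do not say, and the main fit used no pairing. With the replicate block 81 members fell and 40 rose, 28 and 5 beyond 1, 119 of the 121 called being the same genes, and no named call changed.

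Members near the count limit were measured less precisely: the SE of the log2 fold change was 0.25 for Gm47792 and 0.08 for Malat1.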
